A study of Mus musculus with 8 samples.

Results

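Among CD45+ cells of mouse skin wounds, 445 of 35158 cells (1.27%) were kept as Cd209a conventional dendritic cells. A cell was kept when it had at least 2 UMIs of Cd209a, at least 100 UMIs of H2-Aa, H2-Ab1, H2-Eb1 and Cd74 together per 10000 UMIs, under 10 UMIs of C1qa, C1qb and C1qc together per 10000, and no UMI of Ccr7. These thresholds on measured counts chose the cells, so the levels of those 9 genes are given as a description. Near the limits stood 72 cells with exactly 2 Cd209a UMIs, against 153 with 1 UMI that met the other limits. A class II rate of 100 to 150 was found in 14 cells, against 17 at 50 to 100, and a C1q rate of 5 to 10 in 111 cells, against 74 at 10 to 15. Another 96 cells failed only through a single Ccr7 UMI.

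The cells came from full-thickness back wounds of male C57BL/6J mice. The diabetic group had received streptozotocin (STZ), a toxin of pancreatic beta cells, at 120 mg/kg when 4 weeks old, which models a loss of insulin and not insulin resistance. The control group was wounded without STZ, and no other allele or agent separates the groups in the labels. Wounds were taken on days 1, 3, 5 and 7, and the tissue of 5 mice was pooled for each library, so that 8 libraries stand for 8 combinations of condition and day with no replicate of any. Tests below use the days, or the course over them, in place of replicates. Cells were stained for CD45, a surface protein of all leukocytes, and with calcein AM, a dye of living cells, and RNA was captured in microwells with a unique molecular identifier (UMI) on each molecule.

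Conventional dendritic cells take up antigen in the skin, load peptides on MHC class II molecules and show them to CD4 T cells. They arise from bone marrow precursors that need the receptor Flt3, and a branch called cDC2 carries C-type lectins that bind sugars on microbes, of which Cd209a (a mouse relative of DC-SIGN) and Mgl2 (CD301b) are widely used as markers. On maturation dendritic cells gain the chemokine receptor Ccr7 and leave for the lymph node, and cells with Ccr7 are by construction absent here.

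Library totals ran from 19236522 to 33842509 UMIs, and the median cell kept had 2575 to 8234 UMIs. The Cd209a cells were deeper, with medians of 6020.5 to 9758 UMIs. No cell profile was shared between libraries. Genes of another lineage were found in 17 of the 445 cells, 13 of them with at least 2 UMIs of Cd3 genes of T cells, 4 with a high rate of the neutrophil genes S100a8 and S100a9 and 0 with B cell genes. Doublets were not removed with a caller.

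The limit on C1q acted unevenly between libraries. Complement C1q is made by macrophages, yet T cells, which do not make it, had a median C1q rate of 0 per 10000 UMIs on day 1 in both conditions, 8.93 in diabetic day 7, 10.9 in control day 5 and 15.8 in control day 7. In control day 7, 82.7% of T cells were past the limit of 10, against 53.9% in control day 5, 40.0% in diabetic day 7 and at most 17.5% elsewhere. Of the cells that met the other limits, C1q removed 79 of 89 in control day 7, 45 of 68 in control day 5 and 53 of 113 in diabetic day 7, against 6.67% to 18.8% in the other 5 libraries. Shares among all cells and among class II cells are therefore given also with C1q under 30, which keeps 591 cells, an alternative chosen after seeing these values. For gene levels, the value in T cells (at least 3 UMIs of Cd3 genes) is set beside the Cd209a cells as a measure of free RNA.

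Cd209a itself stood at 1253, 1568, 1549 and 1356 CPM (UMIs per 1000000 of the cells' summed non-mitochondrial UMIs) in diabetic days 1, 3, 5 and 7 and at 1380, 1357, 1080 and 989 in the control libraries. T cells held 1.88 to 60.9 CPM, and 1.10% to 10.4% of them had a Cd209a UMI. The gene lies on chromosome 8 at 3743397 to 3748984 (GRCm38, GENCODE vM21), on the minus strand, beside Cd209e (3847965 to 3854309), Cd209d (3871824 to 3878555), Cd209b (3917655 to 3926844) and Cd209c (3940222 to 3954746), relatives with which reads may be shared. Of the Cd209a cells, 38.2% had a UMI of Cd209d, 21.8% of Cd209c, 20.2% of Cd209e and 6.29% of Cd209b.

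The promoters of Cd209a, Cd209d and Cd209e are shown because these genes carry results given below and because the same letters recur in all 3. The motif GGAA followed by GAAA after 2 bases of any kind, a composite site known from the factors PU.1 and IRF4 or IRF8, was searched on both strands from 250 bases before to 50 after the start (RefSeq, GRCm38.p6). It was met once in each of these promoters, on the strand opposite to the gene, and not in the promoters of Cd209b, Cd209c, Cd209f, Cd209g, Mgl2, Klrb1b, H2-DMa, H2-DMb1 and H2-DMb2. Of 32851 mouse promoters of this length, 892 (2.72%) held it. The windows of 60 bases, chr8:3748959-3749018 for Cd209a, chr8:3878535-3878594 for Cd209d and chr8:3854337-3854396 for Cd209e, read 5′ to 3′ along the gene (minus strand of the chromosome), with the motif's complement in capitals.
Cd209a: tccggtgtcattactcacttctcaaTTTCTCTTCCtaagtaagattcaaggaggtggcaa
Cd209d: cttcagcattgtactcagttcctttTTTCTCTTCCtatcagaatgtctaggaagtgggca
Cd209e: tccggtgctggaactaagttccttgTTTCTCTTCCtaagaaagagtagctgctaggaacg
From the RefSeq start, the motif lay at bases -9 to 1 in Cd209a, at -70 to -61 in Cd209d and at -85 to -76 in Cd209e. The GENCODE ends given above put the starts of Cd209d and Cd209e elsewhere, so these distances hold for RefSeq alone. Aligned on it without gaps, the windows shared 53.3% to 58.3% of their bases. This count includes the motif itself, which reads alike in all 3 windows and raises it. A match of letters is a description of the sequence, and binding was not measured.

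The other marker genes were detected in part of the cells. A UMI of Mgl2 was found in 48.3% of the Cd209a cells, of Klrd1 (CD94, a lectin-like receptor best known from NK cells) in 49.9%, and of H2-DMb2, a chain of the H2-DM peptide-loading molecule, in 43.8%. At a common depth of 1000 UMIs per cell, which left out 11 cells, these shares were 31.6%, 18.0% and 15.2%, against 2.85%, 4.81% and 2.02% in T cells. Flt3 was met in 11.3% at this depth (T cells 0.713%), Clec10a, the neighbour and close relative of Mgl2, in 27.6% (2.67%) and Itgax (CD11c) in 20.7% (3.92%). The dendritic cell factor Zbtb46 was met in 5.07% against 2.38%. Flt3, Itgax and Zbtb46, defining genes of conventional dendritic cells, were thus met above the share in T cells. Other dendritic cell genes were met below it, among them Irf4 (4.84% against 6.77%), Id2 (30.6% against 62.1%) and Ly75 (0.691% against 3.03%). These are single genes and not a count over a whole list.

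Markers of other dendritic cells were met in part of the cells. Without thinning, 106 of the 445 (23.8%) had a UMI of Xcr1 or Clec9a. Of 11 cDC1 genes, 8 had a UMI in a larger share of the Cd209a cells than of T cells at 1000 UMIs and 3 in a smaller share. At that depth, Xcr1, which marks cDC1, had a UMI in 4.84% of the cells and in 7.43% of T cells, and Clec9a in 0.461% and 0. Siglech, of plasmacytoid dendritic cells, was met in 1.15% against 0 in T cells and reached 51.8 CPM in 1 library, with T cells at most at 2.20. Of 7 plasmacytoid genes, 4 had a UMI in a larger share of the Cd209a cells than of T cells and 2 in a smaller share. They summed to a median of 261 CPM over libraries, against 65.5 in T cells, 241 in other class II cells and 218 in mature dendritic cells. Cd207 (langerin) was met in 0.691% against 0.357%.

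Monocyte genes were detected in many of the cells. Of 12 on the list, 10 had a UMI in a larger share of the Cd209a cells than of T cells at this depth. Plac8 was met in 32.5% against 9.33%, Ms4a4c in 25.3% against 3.68% and Vcan in 5.30% against 2.26%, while Ly6c2 stood at 13.4% against 15.7%. The list summed to 3726 to 7571 CPM in the Cd209a cells, against 2532 to 8567 CPM in T cells and 9930 to 14163 CPM in C1q macrophages.

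Mgl2 and Klrd1 were both detected in 87 cells, Mgl2 alone in 128, Klrd1 alone in 135 and neither in 95. The highest count of a single cell was 141 Mgl2 UMIs and 21 Klrd1 UMIs. The cells kept by the rule were thus not uniform in these 2 markers.

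**Figure D1:**
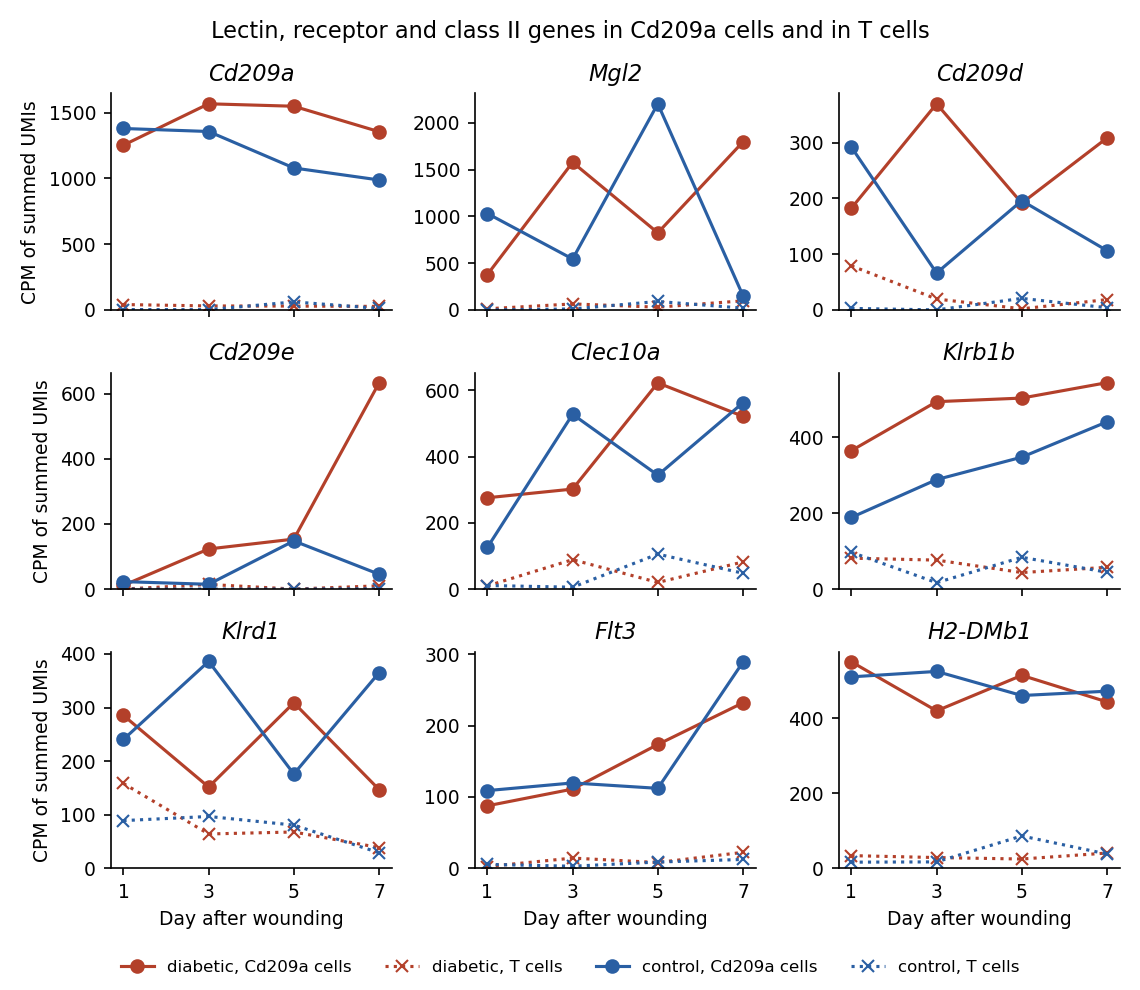
Level of 9 genes in the summed UMIs of the Cd209a cells (circles, solid lines) and of T cells (crosses, dotted lines), in CPM on a linear axis from 0, by day after wounding, for diabetic (red) and control (blue) libraries. Each point is 1 library. Cd209a and H2-DMb1 varied little between libraries, Mgl2 ran from 152 to 2204 CPM and Klrb1b was higher in the diabetic library on each of the 4 days.

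Compared with every other cell of the same library, Mgl2, Cd209d, Klrb1b, Klrd1 and some of the class II loading genes were higher in the Cd209a cells. These ratios describe cells chosen on expression, carry no test and leave out the 9 genes of the rule. Over the 7 libraries with at least 20 Cd209a cells, 30 of 6252 genes (0.48%) were at least 2-fold higher in every library on the scale of log2(CPM + 20), and 64 (1.02%) were at least 2-fold lower. The median of all genes was 0.06.

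Outside the genes of the rule, the highest ratio was that of Mgl2, at a median of 927 CPM over the 8 libraries against 90.1 in the other cells and a median log2 ratio of 3.38 (lowest library 2.27). Cd209d followed at 194 against 13.8 CPM (2.67, lowest 1.59). Klrb1b, an inhibitory C-type lectin of the NK receptor family, was at 403 against 38.6 CPM (2.46, lowest 1.80) and Klrd1 at 263 against 25.3 CPM (2.42, lowest 1.11). Both lie in the NK gene complex on chromosome 6, Klrb1b at 128813706 to 128826331 and Klrd1 at 129591782 to 129598775.

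Of 13 measured genes of class II loading and its control, 4 were at least 2-fold higher and 0 lower in every library, with a list median of 0.80. H2-DMb1 stood at 491 against 90.0 CPM (log2 ratio 2.08) and H2-DMa at 562 against 124 CPM (2.06), which encode the chains that exchange peptides on class II molecules. H2-DMb2 had a ratio of 1.87 and Ciita, the master activator of class II genes, one of 1.78. H2-DMb1 was even between libraries, from 419 to 550 CPM, with no separation of the conditions.

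Of 13 conventional dendritic cell genes, Flt3 (1.40, lowest 1.25) and Bcl11a (1.30, lowest 1.11) were at least 2-fold higher in every library. Among cDC2 genes 6 of 15 were, including Ffar2, a receptor of short-chain fatty acids (1.82), Kmo, an enzyme that breaks down kynurenine (1.89), and Tnip3, an inhibitor of NF-kB signalling (2.17). Of 13 macrophage genes 6 were at least 2-fold lower, among them Apoe (-2.31) and Ms4a7 (-2.19), and of 28 inflammatory myeloid genes, 27 of them measured, 7 were lower, among them Spp1 (-2.61). S100a9 was lower as well (-2.70).

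Against C1q macrophages (4146 class II cells with a C1q rate of at least 10), 35 genes (0.56%) were at least 2-fold higher in every library and 54 (0.864%) lower, with a median of all genes of 0.04. Cd7, a receptor of lymphocytes and some progenitors, was 416 against 16.3 CPM (median log2 ratio 3.52, lowest 1.28). Klrd1 had a ratio of 3.22, Klrb1b of 3.06, P2ry10, a receptor of lysophospholipids, of 2.89, Dpp4 (CD26) of 2.24 and Flt3 of 2.01. Of 19 chemokines measured 7 were at least 2-fold lower, including the monocyte attractants Ccl7 (-3.48) and Ccl8 (-2.82). Apoe stood at -3.47.

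Against the 1942 other class II cells low in C1q and without Ccr7, only a few genes were apart. Mgl2 (2.77), Cd209d (2.60) and Clec10a (1.76) were the 3 genes outside the rule (0.048%) at least 2-fold higher in every library, all of them lectins. Irf8 (-1.75), a factor needed by cDC1 and monocytes, the scavenger receptor Msr1 (-1.68) and the coagulation factor F10 (-1.34) were the 3 (0.048%) at least 2-fold lower. The median of all genes was -0.01.

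Against 469 mature dendritic cells (Ccr7 and Fscn1 with a UMI each), compared in 5 libraries, 10 genes (0.16%) were at least 2-fold higher and 86 (1.38%) lower, with a median of all genes of 0.08. With the cells chosen after thinning to 1000 UMIs but levels taken from all their UMIs, 126 of 3959 genes were higher and 96 lower in 4 libraries. Mrc1, the mannose receptor, was 404 against 109 CPM (median log2 ratio 2.20, lowest 1.20), Cd209d had a ratio of 1.97 and Mgl2 of 1.96. The receptor Ccr2, which guides cells out of the blood, had a ratio of 1.47 and was higher in 5 of 5 libraries. Of 11 measured genes of mature dendritic cells 7 were at least 2-fold lower, with a list median of -2.36. Ccl22, a chemokine for regulatory T cells, was 24.8 against 2090 CPM (-5.69), and Socs2 (-3.88), Cd80 (-1.65) and Cd86 (-1.18, though not past 2-fold in every library), the last a pair of costimulatory ligands, were lower too. Flt3 (-1.34) and H2-DMb2 (-1.07) were lower in the Cd209a cells than in mature cells in 5 of 5 libraries.

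The first question of the design is whether diabetic and control wounds held these cells in different shares. The diabetic libraries held them at 1.47% (exact 95% binomial interval 1.15 to 1.86), 1.91% (1.57 to 2.31), 1.75% (1.37 to 2.19) and 1.65% (1.26 to 2.11) on days 1, 3, 5 and 7, from 70, 104, 73 and 60 cells. In the control libraries they made up 0.499% (0.313 to 0.754), 1.73% (1.38 to 2.14), 0.704% (0.447 to 1.05) and 0.215% (0.103 to 0.395), from 22, 83, 23 and 10 cells. The diabetic shares stayed close to each other, while control day 3 lay among them and the other control libraries lay below all of them. The intervals cover counting error only.

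The diabetic share was 2.95 times the control share on day 1 (1.81 to 5.01), 1.11 times on day 3 (0.822 to 1.5), 2.48 times on day 5 (1.53 to 4.15) and 7.66 times on day 7 (3.89 to 16.8). The mean log2 ratio over the 4 days was 1.49, and an exact two-sided sign-flip permutation test over the days gave a p of 1 in 8, the smallest value that 4 days allow. With C1q under 30 the shares were 1.49%, 2.12%, 1.89% and 2.72% in diabetic and 0.499%, 1.85%, 1.26% and 1.61% in control libraries, and the ratios 2.99, 1.14, 1.5 and 1.68. Their mean log2 ratio was then 0.78 (exact p of 1 in 8), and with no C1q limit 0.57 (exact p = 0.25), with day 5 at -0.10. The ratio on day 1 was 2.95 under the rule and 2.99 with C1q under 30, while that on day 7 fell from 7.66 to 1.68. Without day 7 the mean log2 ratio was 1.01 and without day 3 it was 1.94.

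**Figure D2:**
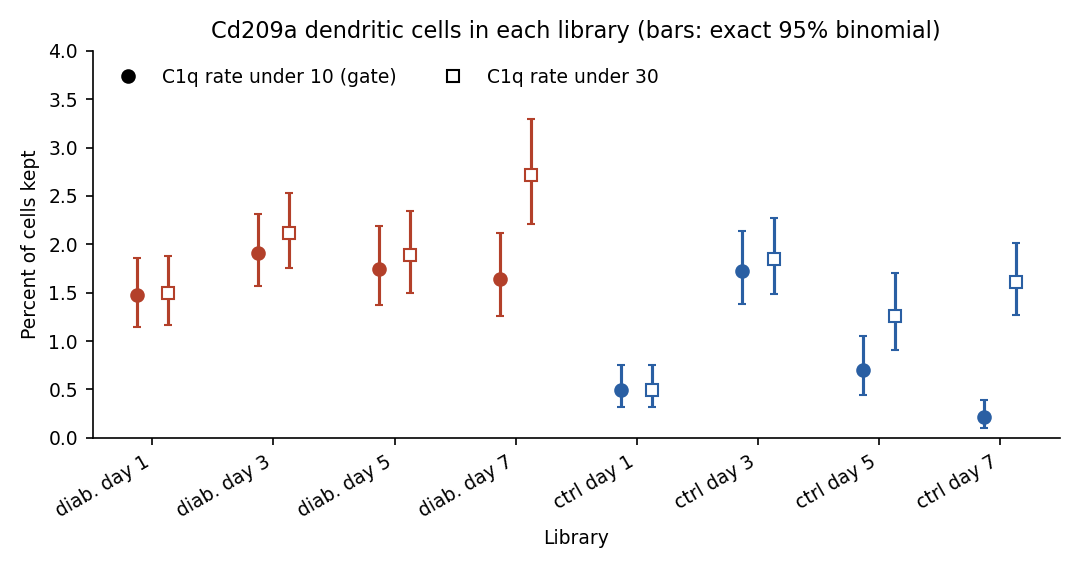
Share of Cd209a dendritic cells among the cells kept in each library, in percent, with exact 95% binomial intervals as bars, for the limit of the rule (C1q rate under 10, filled circles) and for a C1q rate under 30 (open squares), diabetic in red and control in blue. Control day 7 moved from 0.215% to 1.61% and control day 5 from 0.704% to 1.26%. Diabetic day 1 moved from 1.47% to 1.49% and control day 1 stayed in place.

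As shares of all class II cells, the Cd209a cells were lower on each later day in both conditions, from 16.1% on day 1 to 8.14%, 6.34% and 3.48% in diabetic libraries and from 9.40% to 5.93%, 2.44% and 0.601% in control libraries. With C1q under 30 these shares were 16.3%, 9.01%, 6.86% and 5.74% in diabetic and 9.40%, 6.36%, 4.35% and 4.50% in control libraries. Control day 7 was then 4.50% in place of 0.601% and no longer below control day 5. A share depends on every other cell of the library, so more Cd209a cells and fewer other cells cannot be told apart. Class II cells numbered 435 on day 1 and 1725 on day 7 in diabetic libraries, and 234 and 1665 in control libraries. The median class II rate of T cells was 7.27 on day 1 and 66.1 on day 7 in diabetic libraries, and 4.94 and 49.4 in control. The part of free class II RNA in these shares was not tested.

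Mgl2 split the Cd209a cells. At least 3 Mgl2 UMIs were found in 169 of them, 1 or 2 in 46 and none in 230. The share with at least 3 was 18.6% (10.3 to 29.7), 59.6% (49.5 to 69.1), 23.3% (14.2 to 34.6) and 60.0% (46.5 to 72.4) in diabetic days 1, 3, 5 and 7. In control days 1, 3 and 5 it was 31.8% (13.9 to 54.9), 20.5% (12.4 to 30.8) and 65.2% (42.7 to 83.6), and in control day 7 it was 2 of 10 cells (2.52% to 55.6%). Diabetic days 3 and 7 and control day 5 were near 60%, the other 5 libraries at or under 31.8%, and this order followed neither condition nor day. Among T cells 31 of 1688 had at least 3 Mgl2 UMIs. Their share was 6.96% in control day 5, 3.50% in diabetic day 7 and 1.94% in diabetic day 3, the same 3 libraries, and 0 to 1.37% in the other 5, and the part of free RNA in the order was not tested.

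The order held when depth and the C1q limit were changed. With every cell thinned to 4000 UMIs (398 cells, 47 left out) and a limit of 2 Mgl2 UMIs, the 3 high libraries stood at 60.9% to 62.2% and the others at 16.7% to 28.6%. With C1q under 30 they stood at 53.7% to 61.6% and at 19.7% to 31.8%. The level of Mgl2 itself was 378, 1578, 824 and 1797 CPM in diabetic and 1031, 544, 2204 and 152 CPM in control libraries, with T cells at 0 to 96.9. Klrd1 was at 285, 152, 309 and 147 CPM in diabetic and 241, 386, 176 and 365 CPM in control libraries, lowest in the 3 libraries where Mgl2 was highest.

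**Figure D3:**
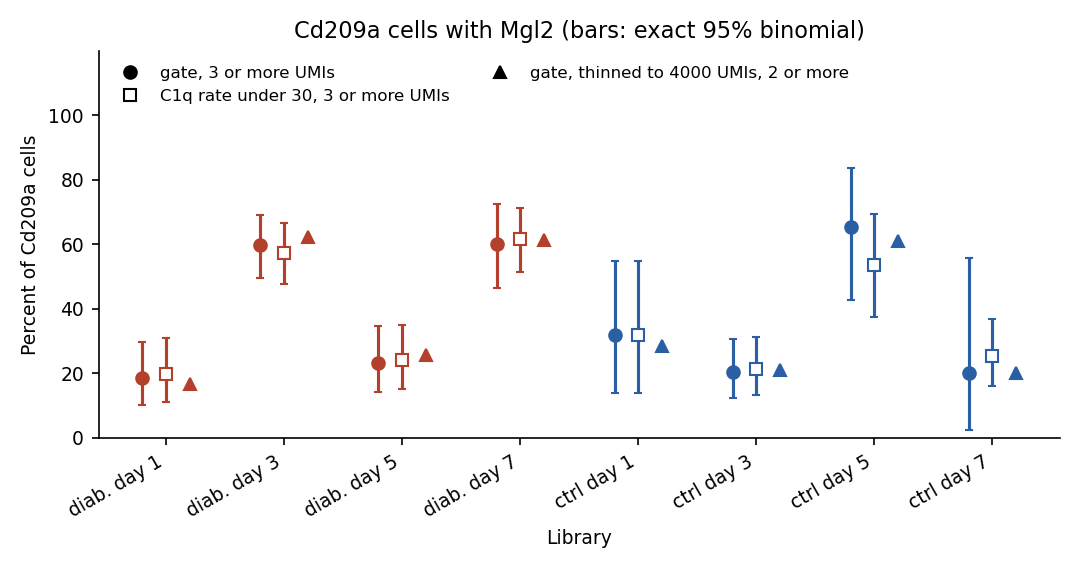
Percent of the Cd209a cells of each library with at least 3 Mgl2 UMIs, with exact 95% binomial intervals, under the rule, with C1q under 30 and after thinning to 4000 UMIs (at least 2 UMIs). In each setting diabetic days 3 and 7 and control day 5 stood above the other 5 libraries.

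Inside single libraries, the Mgl2-rich cells carried more Ear2, Mrc1 and Cd209d, and the cells without Mgl2 more Cd7, Plac8 and Klrd1. The split is itself on expression, so the counts below carry no test. In 6 libraries with at least 7 cells of both kinds, 123 of 5651 genes (2.18%) were higher in the Mgl2-rich cells in every library and 236 (4.18%) lower, and the median of all genes was -0.06.

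Ear2, a secreted ribonuclease, had the largest median log2 ratio, 3.23. Its level was 239, 214, 608 and 102 CPM in Mgl2-rich cells of diabetic days 1, 3, 5 and 7 and 171 and 62.8 CPM in control days 1 and 3. In cells without Mgl2 it was 0 to 11.7 CPM in the same libraries, so the summed levels of the kinds of cell did not overlap between libraries. Single cells did overlap, since 50 of 152 Mgl2-rich cells and 6 of 216 without Mgl2 had an Ear2 UMI. In diabetic day 5, 1 cell held 40 of 105 Ear2 UMIs, and in diabetic day 7, 1 held 16 of 34. Mrc1 was at 978 against 191 CPM (2.05), Cd209d at 430 against 106 (1.69), and Gfra2, a receptor of neurturin, at 125 against 2.73 (2.15).

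Plau, the urokinase (1.59), the macrophage marker Adgre1 (F4/80, 1.34) and the Fc receptors Fcgr2b (1.21) and Fcgr3 (1.17) were higher as well, and so was H2-DMb2 (1.17). The log2 ratio of Adgre1 was only 0.02 in diabetic day 5, and that of Fcgr3 only 0.08 in control day 3. Of 17 measured C-type lectins 5 were higher and 1 lower in every library, with a median of 0.41, and of 13 macrophage genes 3 were higher and 0 lower, with a median of 0.08.

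Cd7 had the largest fall with Mgl2, at 71.3 against 537 CPM (median log2 ratio -2.87). Plac8 stood at 248 against 1129 CPM (-1.50). Klrd1 was lower in the Mgl2-rich cells (-1.48), though by only -0.01 in control day 3, and had a UMI in 0 of them on day 1 in both conditions against 46.3% and 66.7% of the cells without Mgl2. In both control libraries with too few cells for the split the order was the other way, at 9 of 15 Mgl2-rich cells against 3 of 6 in control day 5 and 2 of 2 against 7 of 8 in control day 7. The transcription factors Satb1 (-1.32), Bcl11a (-1.22) and Mef2c (-0.95), the interferon-induced membrane gene Ifitm1 (-1.09) and Gpr183 (-1.05), a receptor of oxysterols that positions dendritic cells, were lower in each of the 6 libraries. The log2 ratio was only -0.07 for Satb1 in control day 3, -0.09 for Bcl11a in diabetic day 5 and -0.05 for Gpr183 in diabetic day 1. Of 13 conventional dendritic cell genes 2 were lower and 0 higher, with a median of -0.41.

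**Figure D4:**
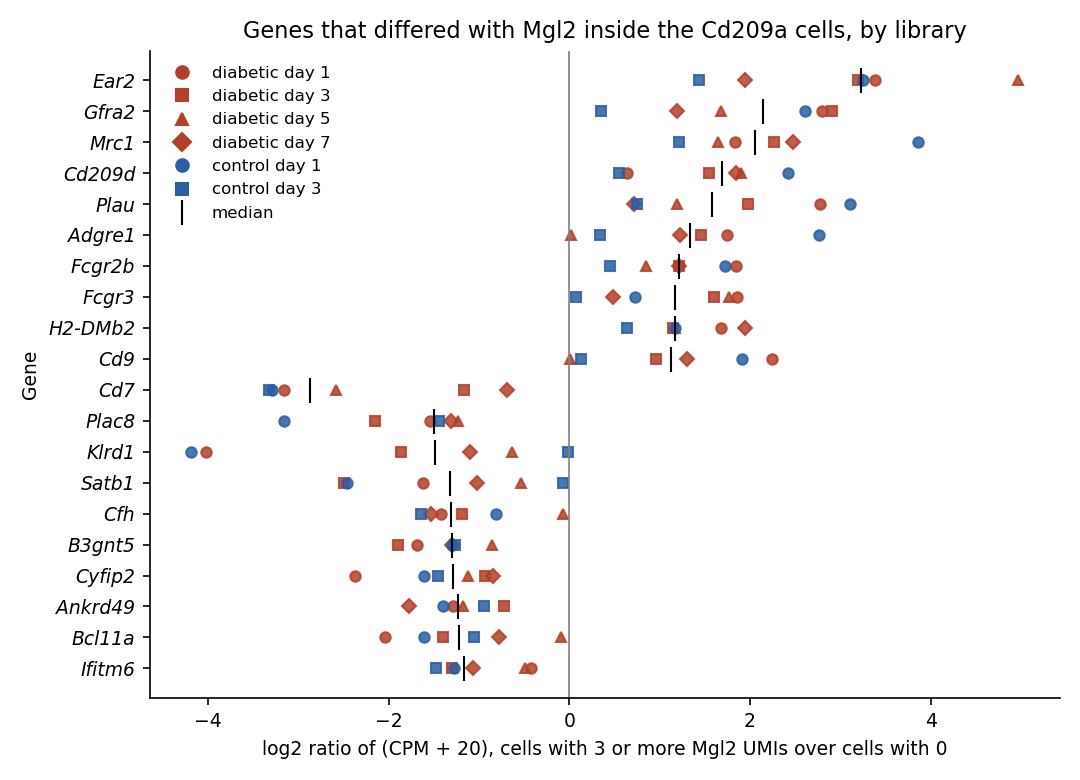
Difference between Cd209a cells with at least 3 Mgl2 UMIs and those with none, as the log2 ratio of CPM + 20, for 10 of the genes with the largest median ratios in each direction among genes on 1 side of 0 in all 6 libraries. Each symbol is 1 library and the black bar the median, from 3.23 for Ear2 to -2.87 for Cd7.

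The levels of Mrc1 and Cd7 over all Cd209a cells of a library moved with the share of Mgl2-rich cells, and that of Ear2 did so only in part. Mrc1 stood at 802 and 892 CPM in diabetic days 3 and 7 and 680 in control day 5, against 184 to 436 in the other 5 libraries, and T cells held 66.7 to 609 CPM. Cd7 stood at 185, 329 and 68.0 CPM in those 3 libraries and at 395 to 710 in the others. Ear2 reached 150, 173 and 196 CPM in diabetic days 3 and 5 and control day 5 and at most 70.4 elsewhere.

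The second question is whether gene levels inside the Cd209a cells differed between conditions. Summed UMIs of the 7 libraries with at least 20 cells were fitted with day as a factor, which left 2 residual degrees of freedom, and day 7, with its control library at 10 cells, gave no contrast. With edgeR's quasi-likelihood test and Benjamini-Hochberg adjustment, 0 of 7274 genes (0% of the genes tested) passed an adjusted p of 0.05. At an unadjusted p under 0.05 stood 242 genes, and DESeq2 called 0. The count was 18 without diabetic day 1, 16 without diabetic day 3, 1 without diabetic day 5, 18 without control day 1, 52 without control day 3 and 12 without control day 5, each in a fit with 1 residual degree of freedom. Genes below are given as values, and all but Klrb1b were chosen for a low p and the same direction on days 1, 3 and 5.

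Klrb1b was higher in the diabetic library on all 4 days, at 365, 494, 504 and 544 CPM against 189, 289, 348 and 441, with T cells at 16.9 to 97.0. Its log2 difference was 0.74 ± 0.23 (SE), with an adjusted p of 0.999. Mmp19, a matrix metalloproteinase, had 70.4, 104, 185 and 128 CPM in diabetic and 34.4, 23.9, 60.0 and 30.4 CPM in control libraries, with a log2 difference of 1.65 ± 0.37 (adjusted p = 0.562). Every diabetic library was above every control library for Mmp19, a gene chosen for its low p, and T cells held 8.44 to 91.6 CPM. The share of all genes separated in this way is not given. With C1q under 30, control day 7 rose to 170 CPM, so that the groups overlapped.

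Vdr, the vitamin D receptor, was 116, 85.1 and 226 CPM on days 1, 3 and 5 in diabetic libraries against 28.6, 51.5 and 64.0 in control (log2 difference 1.42 ± 0.36, adjusted p = 0.562). On day 7 it was 230 CPM in the diabetic library and 365 in the control library of 10 cells, the reverse order. Vdr was 215 CPM against 199 on day 7 with C1q under 30. Satb1, a chromatin organizer of lymphoid cells, differed by 1.38 ± 0.34 (adjusted p = 0.562). On day 7 Satb1 was 240 CPM in the diabetic and 289 in the control library, the reverse order. That order turned back with C1q under 30, at 229 CPM against 118. In control day 7 a single cell held 11 of 19 Satb1 UMIs. Satb1 was at 210 to 560 CPM in T cells and at 31.3 to 289 in the Cd209a cells.

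Several genes of the wound's inflammatory cells were higher in diabetic libraries on days 1, 3 and 5. Thbs1 (thrombospondin 1) differed by 0.97 ± 0.22, the neutrophil attractant Cxcl3 by 1.25 ± 0.29, the protease inhibitor Slpi by 1.73 ± 0.42, serum amyloid Saa3 by 1.92 ± 0.45 and the chitinase-like Chil3 by 2.05 ± 0.50 (adjusted p = 0.562 for each). T cells held medians of 557, 226, 468, 45.8 and 59.9 CPM of these 5 genes, above the medians of 491, 150, 372, 28.7 and 38.9 CPM in the Cd209a cells, and the part of free RNA was not tested. On day 7 Saa3 was 26.9 CPM in the diabetic and 30.4 in the control library, the reverse order. Cxcl3 was 66.2 against 60.8 on that day, Slpi 277 against 259, Thbs1 515 against 380 and Chil3 58.0 against 0. With C1q under 30 the day 7 order of Thbs1 turned, at 765 CPM against 821. That of Saa3, Cxcl3, Slpi and Chil3 did not. F10 differed by 1.82 ± 0.44 and had the same adjusted p. In control day 5 F10 rested on 2 UMIs of 1 cell, against 106 CPM in diabetic day 5, and with C1q under 30 it was 107 CPM there against 106, so that the order of day 5 turned. In diabetic day 1 a single cell held 212 of 438 Cxcl3 UMIs and another 41 of 73 Saa3 UMIs. Without that cell Cxcl3 was 447 CPM in place of 833, and Saa3 62.0 in place of 139.

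Lower in the diabetic libraries on days 1, 3 and 5 were the heat-shock gene Hspa1b, at 261, 447 and 102 against 338, 1278 and 304 CPM (log2 difference -1.17 ± 0.25), and the interferon-induced chemokine Cxcl10, at 47.5, 61.6 and 13.2 against 212, 108 and 96.0 CPM (-1.80 ± 0.41), with an adjusted p of 0.562 for both. On day 7 Hspa1b was 915 CPM in the diabetic and 456 in the control library, the reverse order. Cxcl10 was reversed on day 7 as well, at 6.21 CPM (3 UMIs of 1 cell) against 0, and at 48.3 against 9.06 with C1q under 30. Of the Hspa1b UMIs, 1 cell held 50 of 76 in control day 5, 35 of 59 in control day 1 and 87 of 137 in diabetic day 1. Without the top cell of each library Hspa1b was 95.8, 383 and 69.7 against 142, 999 and 107 CPM. For Cxcl10, 1 cell held 16 of 24 UMIs in control day 5 and 20 of 37 in control day 1. The lectin Clec12a (-1.48 ± 0.45), lipoprotein lipase Lpl (-1.63 ± 0.50), the heat-shock gene Hsph1 (-1.21 ± 0.35) and the glutathione peroxidase Gpx1 (-0.60 ± 0.19) had an adjusted p of 0.999. Day 7 reversed the order of Clec12a, at 22.8 CPM in the diabetic and 0 in the control library, and of Gpx1, at 985 against 806. Lpl (58.0 against 76.0) and Hsph1 (197 against 319) kept theirs. With C1q under 30 Clec12a was 28.0 against 47.1 CPM on day 7 and Gpx1 964 against 1004. In control day 5, 1 cell held 31 of 42 Clec12a UMIs, without which Clec12a was 50.2 CPM in place of 168, and 1 cell held 17 of 32 Lpl UMIs. Lpl on day 3 with C1q under 30 was 108 CPM in the diabetic and 77.2 in the control library, the reverse order. With the top cell of every library left out, which was tried after seeing the data, the 20 genes of this comparison kept their direction on each of days 1, 3 and 5. They had been chosen for the same direction on those days, so this is no independent support.

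By lists, 0 genes passed in either direction in any. Of 27 tested inflammatory myeloid genes 23 had a positive and 4 a negative difference, with a median of 0.37 beside 0.03 over all genes. Of 14 heat-shock genes 13 were negative (median -0.45), of 12 monocyte genes 11 positive (median 0.39) and of 10 neutrophil genes 9 positive (median 1.05). Neutrophil genes summed to 1722 to 4041 CPM in the diabetic and 2140 to 4258 in the control Cd209a cells, against 853 to 7398 CPM in T cells and 40404 to 80500 CPM in neutrophils. Class II loading genes had a median of -0.03 over 13 genes, and cDC2 genes one of -0.06 over 15. Of 37 interferon-stimulated genes 27 were negative (median -0.20).

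The third question is whether gene levels changed over the days. With condition in the model and day as a number, 3 of 6398 genes (0.0469%) passed an adjusted p of 0.05 in edgeR, 1 higher and 2 lower with day, and 372 stood under an unadjusted p of 0.05. Retnlg, Wfdc21 and Cd209e were these genes, each with an adjusted p of 0.0284. DESeq2 called 17. In edgeR the count was 20 without diabetic day 3, 1 without diabetic day 7 or without control day 5, and 0 without diabetic day 1, control day 1 or control day 3.

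Cd209e, a lectin beside Cd209a whose promoter is shown above, rose by 0.78 ± 0.11 (SE) on the log2 scale per day. Its level was 11.4, 123, 154 and 633 CPM in diabetic days 1, 3, 5 and 7 and 22.9, 14.7, 148 and 45.6 CPM in control. Diabetic day 7 stood far above the others. T cells held 0 to 14.2 CPM.

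Most Cd209e UMIs lay in the Mgl2-rich cells, whose share differs between libraries. Cells with at least 3 Mgl2 UMIs held 268 Cd209e UMIs in diabetic day 7, 75 in diabetic day 5 and 90 in diabetic day 3, against 6, 18 and 8 in cells without Mgl2. Control day 1 had 4 against 0. Diabetic day 1, at 1 against 5, and control day 3, at 3 against 4, did not have most of them in the Mgl2-rich cells. The part of that share in the slope was not tested. The UMIs behind Cd209e also came from few cells in some libraries. They were 306 UMIs in 35 of 60 cells of diabetic day 7, 100 UMIs in 26 of 104 cells of diabetic day 3, and 93 UMIs in 10 of 73 cells of diabetic day 5, where 1 cell held 53. In control day 5 a single cell held 25 of 37 UMIs. The call was lost with C1q under 30 (0.57 per day, adjusted p = 0.149), without diabetic day 1 (adjusted p = 0.335), without diabetic day 7 (0.421), without control day 1 (0.188), without control day 3 (0.0859) and without control day 5 (0.0508). It was kept in 10 of 24 alternatives, with adjusted p-values from 1.03e-19 to 0.999, and the slope was positive in each of the 24.

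Retnlg, a resistin-like gene of neutrophils, fell by 0.86 ± 0.12 per day, at 299, 191, 24.8 and 18.6 CPM in diabetic and 223, 60.7, 0 and 30.4 CPM in control libraries. T cells held 976, 382, 23.6 and 30.4 CPM in diabetic and 321, 51.6, 2.18 and 13.2 CPM in control libraries, as much or more in 5 of the 8. Wfdc21 fell by 0.67 ± 0.10 per day, at 124, 56.7, 16.5 and 12.4 CPM in diabetic and 68.7, 12.9, 4.00 and 0 CPM in control, below the T cell level of the same library in each of the 8. Both genes thus had the course of the free RNA measured in T cells, and its part in the slope was not tested. The call of Retnlg was lost without diabetic day 1 (adjusted p = 0.128), 5 or 7 or control day 1 or 3, and was kept in 12 of 24 alternatives (adjusted p from 1.6e-19 to 0.999). That of Wfdc21 was lost without any single library other than diabetic day 3 and was kept in 9 of 23 (6.42e-07 to 0.395).

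Below the threshold, Flt3 had a slope of 0.19 ± 0.06 per day (adjusted p = 0.672), at 87.5, 111, 173 and 232 CPM in diabetic and 109, 120, 112 and 289 CPM in control libraries, with T cells at 2.40 to 22.3. The macrophage genes Ms4a7 (0.47 ± 0.08) and Ccl8 (0.84 ± 0.14) had an adjusted p of 0.0515, and T cells had higher Ms4a7 than the Cd209a cells in every library. Ckb, brain-type creatine kinase, had a slope of -0.33 ± 0.06 (adjusted p = 0.0722), at 266, 137, 142 and 72.5 CPM in diabetic and 407, 166, 108 and 152 CPM in control libraries. Ckb was at 34.2 to 96.6 CPM in T cells. Osm (oncostatin M), a cytokine of the IL-6 family, had -0.34 ± 0.07 (adjusted p = 0.122). Icos (0.86 ± 0.15, adjusted p = 0.0515) and Tnfrsf4 (1.49 ± 0.27, adjusted p = 0.0647), receptors of activated T cells, were at most at 144 and 35.2 CPM in the Cd209a cells and at 1118 to 2484 and 46.2 to 478 CPM in T cells.

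**Figure D5:**
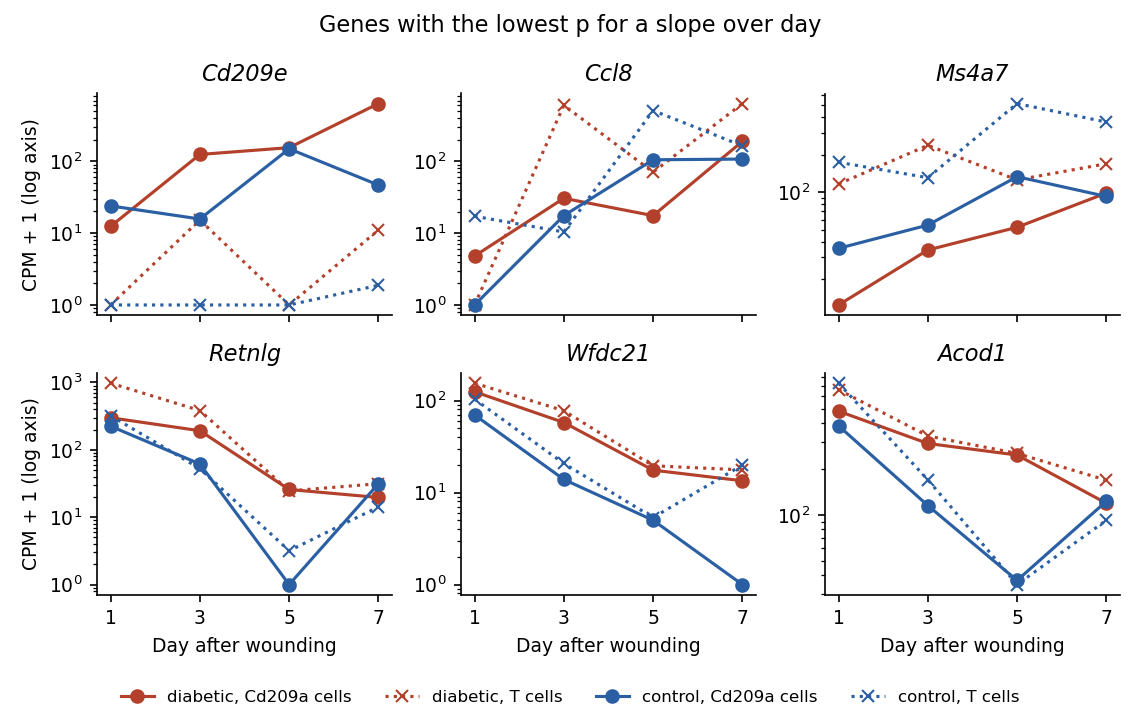
Levels of 6 genes among those with the lowest p for a slope over day, as CPM + 1 on a log axis against day after wounding, in Cd209a cells (circles, solid) and T cells (crosses, dotted) of diabetic (red) and control (blue) libraries. Cd209e in the Cd209a cells reached 633 CPM with T cells at most at 14.2, while Retnlg and Wfdc21 followed the T cells.

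In the lists, the neutrophil genes held 1 gene that passed (Retnlg, lower) and the C-type lectins 1 (Cd209e, higher), and 0 passed in the others. Of 27 inflammatory myeloid genes 26 had a negative slope (median -0.14, beside 0.00 over all genes), and of 12 monocyte genes 11 (median -0.16). The inflammatory list summed to 28590, 25741, 21736 and 19908 CPM in diabetic days 1, 3, 5 and 7 and 24016, 17393, 17800 and 14235 in control. T cells held 25986, 18313, 15218 and 16097 CPM of it in diabetic and 33349, 12023, 13462 and 14481 in control libraries, also highest on day 1. Neutrophils made up 21.6% of cells on day 1 and 6.12% on day 7 in diabetic and 24.7% and 10.3% in control libraries, and the part of free RNA was not tested. All 19 tested cell cycle genes had a positive slope (median 0.19), and so did 10 of 13 conventional dendritic cell genes (median 0.09). The whole list of 28 cell cycle genes summed to 1559, 2221, 1726 and 3217 CPM in diabetic and 1260, 2203, 2208 and 1734 in control libraries. T cells held 2309, 4996, 3791 and 4563 CPM of it in diabetic and 1733, 6528, 4804 and 3930 in control libraries. These were higher in every library and also lowest on day 1. The authors list a cluster of cycling T and NK cells, so this level is not free RNA alone, and the part of free RNA was not tested. Of 13 macrophage genes 10 were positive (median 0.18), and these summed to 1662 to 5547 CPM in the Cd209a cells and 2294 to 10042 CPM in T cells.

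The last comparison asked whether the slope over day differed between conditions. With edgeR 0 of 6398 genes (0%) passed, 340 stood under an unadjusted p of 0.05, and DESeq2 called 0. Without diabetic day 1 the count was 8. The lowest adjusted p was 0.332, shared by Ap1m1 (1.20 ± 0.23), Acp5 (-2.06 ± 0.37), Ctsk (-2.55 ± 0.47) and Mmp9 (-1.70 ± 0.33). Acp5, Ctsk and Mmp9, genes of osteoclasts and matrix-degrading macrophages, were high in control day 5 alone, with 73, 333 and 283 UMIs, of which 1 cell held 58, 272 and 252.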

How the data were processed

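Per the methods, the authors ran fastp (0.20.1 in the submitters' processing notes, which also list mm9), UMI-tools for barcodes and STAR against the mouse genome of Ensembl release 92. The deposited values are UMI counts without normalization, 1 table a library, before the authors' filter on cells.

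Of 38959 barcodes, 35158 had over 200 genes and under 20% mitochondrial UMIs and were kept as cells. Mitochondrial genes do not enter the levels. Counts of the Cd209a cells were summed per library. Gene levels in the text are CPM of these sums, and ratios use log2(CPM + 20) over genes with at least 50 UMIs. Libraries with at least 20 Cd209a cells were fitted in edgeR 4.0.16 (R 4.3.3) with TMM, filterByExpr, the quasi-likelihood test and Benjamini-Hochberg adjustment over all genes, the model holding condition with day as a factor, condition with day as a number, or their interaction. DESeq2 1.42.0 was an alternative. Shares have exact 95% binomial intervals (scipy 1.17.1). The summed UMIs of the Cd209a cells ran from 65755 (control day 7) to 811276 (diabetic day 3) per library. With 1 pooled library per condition and day, p-values measure only the spread between libraries around each model. The methods name a microwell platform, whereas the series record names 10X Genomics.

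Counts were simulated with a log2 change of 2 between conditions, in total from day 1 to day 7, or in total over those days in diabetic libraries alone. The fit recovered 142 of 190 changed genes for condition (3 false calls), 80 of 167 for day (2 false) and 0 of 175 for the interaction. The simulation gave every gene the same dispersion (0.0829) and no other effect of day or condition, unlike the data.

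Genes named were drawn from the rule's genes and markers, list members with the most UMIs or the lowest p, the 10 lowest p in each direction of a fit (for condition, with the same direction on every day compared) and, against other cells, the 20 genes with the largest lowest ratio over libraries. The cells and the lists were chosen with earlier results of these data known. Not every gene so selected is reported here.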

Additional observations from a re-analysis of the deposited data

How the results depend on the processing

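The diabetic share of Cd209a cells was the higher one on average under each of the 16 alternatives (mean log2 ratio 0.57 to 2.28), and its size followed the C1q limit, 0.78 with C1q under 30 and 2.28 with C1q under 5. In the latter, 1 library had 0 Cd209a cells and was set to a floor of 3, and the diabetic share was higher on 3 of 4 days (day 3 at -0.06, exact p = 0.25). Leaving out 1 day gave 1.01 to 1.94. For condition, 0 genes passed; with at least 3 Cd209a UMIs 3 did and with C1q under 5 there were 12, both in 6 libraries in place of 7 and with 1 residual degree of freedom, with no filter on low counts 17, and leaving out 1 library or day gave 0 to 52. Without the pairing by day (no replicate block) 0 passed, also with C1q under 30. The correlation of same-day libraries over genes was 0.21 for day 1, -0.11 for day 3 and -0.03 for day 5, and 2 of 6 libraries correlated best with their own day, so only the day 1 libraries deviated together. The condition fits on cells chosen after thinning to 1000 UMIs and on libraries with at least 50 cells could not be fitted.

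For the slope over day 3 genes passed. There were 6 with at least 1 Cd209a UMI, 0 with at least 3, 0 after thinning to 1000 UMIs, 0 with a class II rate of at least 200, 1 with C1q under 5, 5 without cells holding genes of other lineages, 17 with DESeq2, 7 without TMM, 62 with no filter on low counts, 0 with at least 50 cells a library, 6 with all libraries and 9 with day as a factor, and leaving out 1 library or day gave 0 to 26. The settings with at least 3 Cd209a UMIs, thinning, a class II rate of at least 200, C1q under 5 and at least 50 cells fitted 5 or 6 libraries in place of 7. Thinning there served only to choose the cells, and all UMIs of the cells chosen were fitted. With C1q under 30 the count was 3 again, with Retnlg shared and Tnfaip6 (0.63 ± 0.10, adjusted p = 0.0482) and Ms4a7 (0.41 ± 0.06, adjusted p = 0.0482) in place of Cd209e and Wfdc21 in edgeR. For the interaction, leaving out 1 library or day gave 0 to 8 genes.

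Against other cells, asking for at least 50 cells of both kinds gave 120 genes lower than in every other cell instead of 64, 6 higher and 8 lower than in other class II cells instead of 3 each, and 89 lower than in C1q macrophages instead of 54. With cells chosen after thinning to 1000 UMIs, which kept 181 Cd209a cells, levels were still taken from all UMIs of those cells. This gave 1 higher and 9 lower than in other class II cells. There were 20 higher than in C1q macrophages instead of 35, and 126 higher than in mature dendritic cells instead of 10. The choice after thinning compared 3959 genes in place of 6252. Both settings used 4 libraries in place of 5 against mature dendritic cells, and 5 in place of 7 against the other cells. The cause of these moves was not tested. Of the values of single genes under the alternatives, none reversed, 796 kept their side of the threshold, 118 passed it only there and 40 lost it. These genes were chosen by a low p in the main fits of the same data, so their kept direction is no independent support. Control day 7, with 10 Cd209a cells, limits every statement on day 7. The alternatives with C1q under 30, with no C1q limit, with class II cells as the base of the share, with libraries of at least 10 cells and with Mgl2 after thinning were chosen after seeing the data.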
